A study of Mus musculus with 6 samples.

Results

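The expression of 8 genes that make, remove or read phosphatidylinositol 3,4,5-trisphosphate (PIP3), the membrane lipid through which insulin reaches Akt, was examined in the extensor digitorum longus (EDL) of the mouse, a hindlimb muscle made mostly of fast-twitch fibres. The genes were taken by symbol from a table of 24411 genes: the catalytic subunits Pik3ca and Pik3cb and the regulatory subunits Pik3r1, Pik3r2 and Pik3r3 of PI3-kinase, the phosphoinositide phosphatases Inppl1 and Inpp5k, and the kinase Pdpk1. The genes were proposed by name with earlier results of these data known, and all 8 were among the 12892 genes that passed the filter on low counts. RNA sequencing was performed on EDL of 3 muscle-specific double-knockout (mAktDKO) mice, genotype Mlc1f-Cre:Akt1/2-floxed, and 3 control mice, genotype Akt1/2-floxed, all C57BL/6J and 50 weeks of age. Both groups carried the floxed Akt1 and Akt2 alleles, and Cre was knocked in at the promoter of Mlc1f, a myosin light chain gene of skeletal muscle fibres. Whole muscle was used, so RNA of vessels, nerve, connective tissue and blood cells in the muscle was counted too, and for every gene below fewer cells of a type and less RNA per cell cannot be told apart.

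As background, insulin binding to its receptor recruits PI3-kinase through the insulin receptor substrates. A regulatory subunit holds the catalytic subunit at these docking proteins, and the catalytic subunit phosphorylates a phosphoinositide of the plasma membrane at the 3-position to give PIP3. Akt and PDK1, the product of Pdpk1, both bind PIP3, and PDK1 then phosphorylates Akt. The signal ends when phosphatases act on PIP3, among them the 5-phosphatases, such as SHIP2 (the product of Inppl1) and SKIP (the product of Inpp5k), which remove the 5-phosphate. In the mAktDKO mice Akt1 and Akt2 are targeted in muscle fibres, downstream of these genes, and the comparison of the genotypes asks whether the transcripts of the 8 genes differed.

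The totals of the deposited estimated counts were between 13738795 and 15445523 per mouse, and the floor of 3 counts, which covers counting error only, lay between 0.180 and 0.227 CPM (each count relative to its library size after TMM scaling). The least abundant of the 8 genes, Pik3cb, had 1124 counts over the 6 mice. As a check of the labels, Akt2 had 51.3, 49.1 and 52.7 CPM in mAktDKO mice 1 to 3 and 172, 133 and 143 CPM in control mice 2 to 4, as the mice are numbered in the table. Akt1 had 58.9, 56.8 and 51.4 CPM in mAktDKO mice, against 66.4, 65.5 and 66.5 CPM in controls. Neither gene overlapped between the groups, and a count per gene does not show how much of a targeted exon was lost. Myh4, the myosin heavy chain that defines the fastest fibres, was between 47020 and 55570 CPM in all 6 mice, against 168 to 637 CPM of Myh7, the slow myosin heavy chain.

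Among the 8 genes, Inppl1 alone had groups that did not overlap, with a lower level in the mAktDKO mice, and the other 7 had overlapping groups. No member was called at an adjusted p under 0.01 by the quasi-likelihood test of edgeR (adjusted by Benjamini-Hochberg), where 0.0233% of all genes tested were called, nor at an adjusted p under 0.05, where 1.18% were called. At an unadjusted p under 0.05 the count was 1 of 8, which was Inppl1, against 24.5% of all genes tested. Non-overlapping groups were found for 1 of 8 members and for 31.1% of all genes tested. In DESeq2, at an adjusted p under 0.05, the count was again 1 of 8, Inppl1, against a background of 7.47%, and at 0.01 DESeq2 called 0 of 8 members against 3.15%. The DESeq2 shares are of the 10440 genes to which it gave an adjusted p, and those of edgeR are of 12892. Log2 fold changes (mAktDKO over control) were above 0 for 4 members and below 0 for 4, with a median of 0.0051, and the median of all genes tested was 0.02. The counts of members called thus lay at or below the share that all genes showed, except for the single DESeq2 call.

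**Figure D1:**
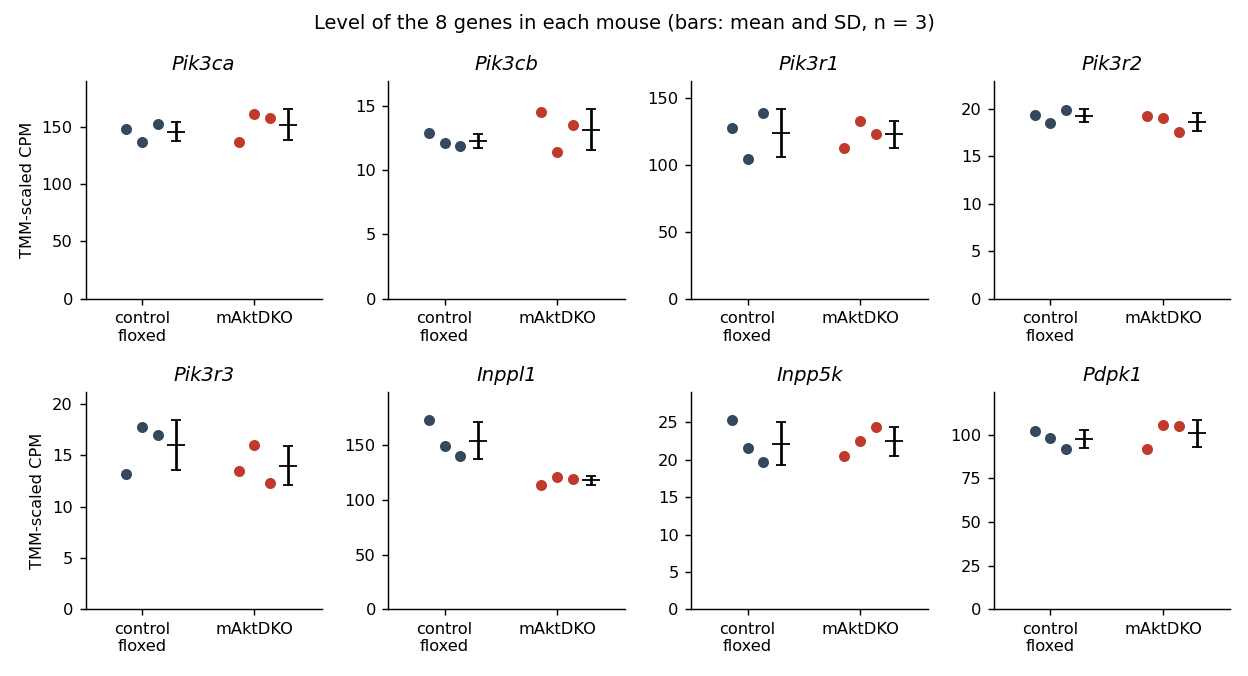
TMM-scaled CPM (y axis, from 0) of each of the 8 genes in the 3 control floxed mice (dark blue) and the 3 mAktDKO mice (red). The bars beside the points are the mean and SD (n = 3). Inppl1 is the panel in which the points of the groups are apart, between 140 and 173 CPM in control mice and between 113 and 121 CPM in mAktDKO mice.

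Inppl1 encodes SHIP2, a 5-phosphatase that turns PIP3 into phosphatidylinositol 3,4-bisphosphate. The gene lies on the minus strand of chromosome 7 (GRCm38, 101822632 to 101838229). It had 113, 121 and 120 CPM in mAktDKO mice 1 to 3 and 173, 149 and 140 CPM in control mice 2 to 4. The 3 mAktDKO values lay close together and below all 3 control values, and control mouse 2 was the highest of the 6. The means were 118 ± 3.92 CPM (SD, n = 3) in mAktDKO mice and 154 ± 16.9 CPM (SD, n = 3) in control mice, a ratio of 0.766 (95% interval 0.661 to 0.887). The log2 fold change was -0.39, with a standard error of 0.094 (unadjusted p = 0.00261, adjusted p = 0.0684 in edgeR). DESeq2 gave -0.39 with an adjusted p of 0.0109, and limma voom gave -0.38 with an adjusted p of 0.0662. The exact two-sided permutation p was 0.1, the smallest that 3 mice against 3 can give. Over the fits that each left out 1 mouse the log2 fold change stayed between -0.45 and -0.29, with adjusted p values from 0.0521 to 0.247 in edgeR. The value nearest to 0 came without control mouse 2, the highest control. On the opposite strand Gm10602 shares 1204 exon bases with Inppl1 and Phox2a shares 95, and the strand setting of the counting is not given in the sources used here. Phox2a had 8 counts in all. When library totals replaced TMM, the log2 fold change of Inppl1 was -0.25, and the median of all genes moved to 0.16.

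The sequences before the starts of Inppl1 are shown because it is the member with separate groups. RefSeq lists 2 starts for the gene, and the 250 bases before each are printed 5′ to 3′ on the minus strand (GRCm38.p6), at chr7:101838227-101838476 for the upstream start and chr7:101837825-101838074 for the downstream one. Capitals mark matches, on either strand, to GGGCGG (the GC box, or CCGCCC on the other strand) or CCAAT (the CCAAT box, or ATTGG on the other strand).
Inppl1 upstream start: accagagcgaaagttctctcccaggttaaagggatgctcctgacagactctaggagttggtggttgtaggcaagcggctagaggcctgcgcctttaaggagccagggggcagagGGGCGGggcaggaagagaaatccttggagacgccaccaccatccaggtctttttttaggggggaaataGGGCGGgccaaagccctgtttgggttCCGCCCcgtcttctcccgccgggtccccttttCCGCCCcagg
Inppl1 downstream start: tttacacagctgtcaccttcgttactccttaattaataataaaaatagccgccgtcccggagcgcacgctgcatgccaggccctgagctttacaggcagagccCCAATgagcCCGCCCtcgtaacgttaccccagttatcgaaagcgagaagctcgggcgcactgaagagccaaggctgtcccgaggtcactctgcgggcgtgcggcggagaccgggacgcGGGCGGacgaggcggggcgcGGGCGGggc
The upstream window held 4 GC boxes, and the downstream window held 3 GC boxes and 1 CCAAT box. Neither window held GTAAACA, the consensus bound by FoxO factors, which are phosphorylated by Akt, or CACGTG, an E-box. Among 32851 windows of the same length before RefSeq starts, 32.7% held a GC box, 33.9% a CCAAT box, 3.17% GTAAACA and 6.02% CACGTG. A match is a description of letters and not of a bound site.

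Inpp5k encodes SKIP, a 5-phosphatase of the endomembranes that also acts on PIP3 in muscle (chromosome 11, 75630988 to 75648871, plus strand). Its level was 20.5, 22.5 and 24.4 CPM in mAktDKO mice and 25.3, 21.5 and 19.7 CPM in control mice. The groups overlapped, and both the highest and the lowest of the 6 values were in control mice. The means were 22.5 ± 1.93 and 22.2 ± 2.88 CPM (SD, n = 3 each), and the log2 fold change was 0.02 (95% interval -0.25 to 0.29, adjusted p = 0.938 in edgeR). It took either sign as single mice were left out, from -0.06 to 0.13. The share of Inppl1 in the sum of both 5-phosphatases, each divided by the length of its longest coding transcript, was 74.8, 74.3 and 72.4% in mAktDKO mice and 78.6, 78.8 and 79.3% in control mice. The shares of the groups did not overlap, with means of 73.8 ± 1.23% and 78.9 ± 0.368% (SD, n = 3 each), and this is a description that follows from the lower Inppl1 level.

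Pik3ca encodes the alpha catalytic subunit of PI3-kinase, the isoform that carries most of the insulin signal in muscle (chromosome 3, 32397671 to 32468486, plus strand). It was measured at 137, 161 and 158 CPM in mAktDKO mice and at 148, 137 and 152 CPM in control mice. The lowest mAktDKO mouse was level with the lowest control mouse. The means were 152 ± 13.3 and 146 ± 8.28 CPM (SD, n = 3 each), with a log2 fold change of 0.06 (95% interval -0.15 to 0.27, adjusted p = 0.710 in edgeR). Expressed as a ratio, the interval ran from 0.904 to 1.20.

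Pik3cb encodes the beta catalytic subunit, which can also be activated through G protein-coupled receptors (chromosome 9, 99036654 to 99140621, minus strand). Its level was 14.5, 11.4 and 13.5 CPM in mAktDKO mice and 12.9, 12.1 and 11.9 CPM in control mice. Both the highest and the lowest values were in mAktDKO mice. The means were 13.2 ± 1.57 and 12.3 ± 0.519 CPM (SD, n = 3 each), and the log2 fold change was 0.10 (95% interval -0.17 to 0.37, adjusted p = 0.634 in edgeR). The estimated counts of Pik3cb were not whole numbers in any of the 6 mice, which shows that RSEM divided some of its reads among several places. The share of Pik3ca in the sum of the 2 catalytic genes, per length, was 87.2, 91.1 and 89.5% in mAktDKO mice and 89.3, 89.1 and 90.3% in control mice. The shares overlapped, with means of 89.3 ± 1.94% and 89.6 ± 0.640% (SD, n = 3 each).

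Pik3r1 encodes the alpha regulatory subunit, which stabilises the catalytic subunit and docks it to the insulin receptor substrates (chromosome 13, 101680563 to 101768217, minus strand). It had 112, 133 and 123 CPM in mAktDKO mice and 128, 104 and 139 CPM in control mice. The control mice spanned the mAktDKO mice on both sides. The means were 123 ± 10.2 and 124 ± 17.8 CPM (SD, n = 3 each). The log2 fold change was -0.01 (95% interval -0.27 to 0.25, adjusted p = 0.972 in edgeR), 0.13 with library totals, and from -0.12 to 0.08 as single mice were left out.

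The gene makes a long form with an SH3 domain and shorter forms from internal starts that lack it, and the table sums all of them into 1 count, so a shift between forms is not visible in these values. RefSeq gives windows at 2 starts, printed to show how different the sequences are whose output is summed (minus strand, GRCm38.p6, capitals as above), at chr13:101768218-101768467 and chr13:101692631-101692880.
Pik3r1 upstream start: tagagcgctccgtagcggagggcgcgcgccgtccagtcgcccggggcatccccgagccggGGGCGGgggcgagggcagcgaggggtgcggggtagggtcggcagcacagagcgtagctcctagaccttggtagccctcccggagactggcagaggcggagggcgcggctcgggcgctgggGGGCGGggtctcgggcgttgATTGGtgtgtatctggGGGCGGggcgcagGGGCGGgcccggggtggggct
Pik3r1 internal start: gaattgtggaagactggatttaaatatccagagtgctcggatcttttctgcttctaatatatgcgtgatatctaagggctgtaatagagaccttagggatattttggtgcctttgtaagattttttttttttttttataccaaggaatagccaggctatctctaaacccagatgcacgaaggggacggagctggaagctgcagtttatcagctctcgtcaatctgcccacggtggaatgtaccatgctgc
The upstream window was 76.4% G or C, with 30 CG dinucleotides, 4 GC boxes and 1 CCAAT box. The internal window was 42.4% G or C, with 6 CG dinucleotides and a match to none of the 4 motifs. Over all 8 genes the table gave 13 windows, with a median of 62.8% G or C and 23 CG dinucleotides, against 52.4% and 6 over all windows. A GC box was in 11 of the 13 and a CCAAT box in 5 of 13. GTAAACA and CACGTG were in 0 of 13.

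Pik3r2 encodes the beta regulatory subunit, a close relative of the alpha subunit (chromosome 8, 70768176 to 70776713, minus strand). Its level was 19.2, 19.1 and 17.6 CPM in mAktDKO mice and 19.3, 18.5 and 19.9 CPM in control mice. The 6 values lay close together and overlapped, with means of 18.6 ± 0.914 and 19.2 ± 0.679 CPM (SD, n = 3 each). The log2 fold change was -0.05 (95% interval -0.25 to 0.16, adjusted p = 0.775 in edgeR) and 0.09 with library totals.

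Pik3r3 encodes the gamma regulatory subunit, a short form that lacks the SH3 domain (chromosome 4, 116221618 to 116303056, plus strand). It had 13.5, 16.1 and 12.3 CPM in mAktDKO mice and 13.2, 17.8 and 16.9 CPM in control mice. Control mouse 2 lay below mAktDKO mice 1 and 2, so the groups overlapped. The means were 13.97 ± 1.90 and 16.0 ± 2.44 CPM (SD, n = 3 each), and the log2 fold change was -0.19 (95% interval -0.52 to 0.14, adjusted p = 0.437 in edgeR). This is the widest interval of the 8 genes, and the value ran from -0.31 without control mouse 2 to -0.11 without control mouse 3. The predicted gene Gm49337 shares 1289 exon bases with Pik3r3 on the same strand, and reads from them cannot be told apart.

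Of the summed regulatory genes per length, Pik3r1 made up 66.9 ± 2.06% in mAktDKO mice and 65.4 ± 3.56% in control mice (SD, n = 3 each). The share of Pik3r2 was 22.9 ± 1.74% and 23.1 ± 1.45%, and that of Pik3r3 was 10.3 ± 0.874% and 11.6 ± 2.40%. The ranges of all 3 shares overlapped between the genotypes.

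Pdpk1 encodes PDK1, the kinase that phosphorylates Akt once both are at the membrane (chromosome 17, 24073680 to 24150924, minus strand). Its level was 92.0, 105 and 105 CPM in mAktDKO mice and 102, 98.1 and 91.7 CPM in control mice. mAktDKO mouse 1 lay among the control mice and the other two above them. The means were 101 ± 7.55 and 97.3 ± 5.17 CPM (SD, n = 3 each), and the log2 fold change was 0.05 (95% interval -0.14 to 0.24, adjusted p = 0.746 in edgeR). As a ratio the interval ran from 0.905 to 1.19, the narrowest on the log2 scale among the 8 genes. As single mice were left out, the log2 fold change ranged from 0.0094 to 0.11 for Pdpk1, from 0.01 to 0.13 for Pik3ca, from 0.02 to 0.19 for Pik3cb and from -0.07 to -0.02 for Pik3r2.

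**Figure D2:**
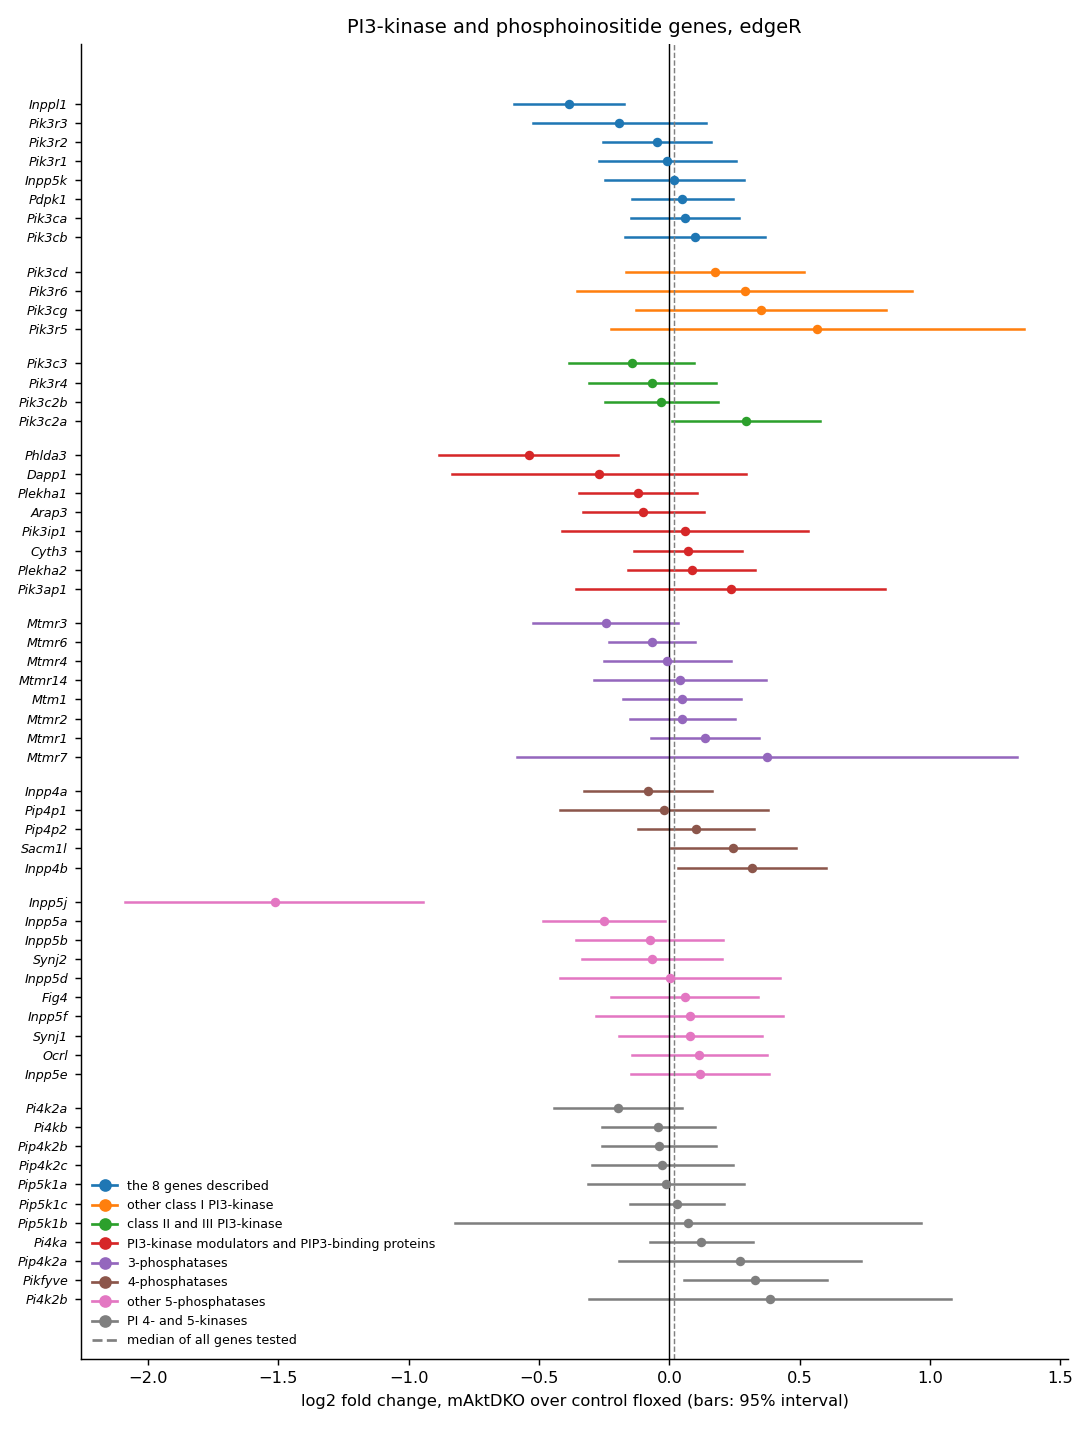
Log2 fold change (x axis, mAktDKO over control floxed, edgeR) of the 8 genes and 50 other tested genes of phosphoinositide metabolism, grouped by list, with 95% intervals as bars. The dashed line is the median of all genes tested, 0.02. The interval of Inppl1 lies below 0, those of the other 7 genes include 0, and Inpp5j stands at -1.52.

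To order the genes by level, CPM was divided by the length of the longest coding transcript in kilobases (GENCODE M21). In control mice Inppl1 was first at 30.8 ± 3.38 CPM per kilobase, then came Pik3r1 at 17.4 ± 2.50, Pik3ca at 16.4 ± 0.928 and Pdpk1 at 13.6 ± 0.722 (SD, n = 3 each). Lower levels were found for Inpp5k at 8.27 ± 1.08, Pik3r2 at 6.08 ± 0.215, Pik3r3 at 3.04 ± 0.464 and Pik3cb at 1.90 ± 0.0801 CPM per kilobase. The ranges of Pik3r1 (14.6 to 19.5) and Pik3ca (15.3 to 17.1) overlapped, and no other neighbours in this order did. In mAktDKO mice the order was the same, Inppl1 had 23.6 ± 0.785 CPM per kilobase, and again only the ranges of Pik3r1 and Pik3ca overlapped among neighbours. The order depended on the length used. Per kilobase of coding sequence, Pdpk1 was first at 58.0 ± 3.08 and Inppl1 was number 4 at 40.8 ± 4.48 in control mice. The control ranges of Pdpk1 (54.7 to 60.8) and Pik3r1 (47.9 to 63.9) overlapped, as did those of Inppl1 and Pik3ca. Pik3r3 (11.6 ± 1.76) then lay above Pik3r2 (8.88 ± 0.314), the reverse of the order with the longest transcript. With the mean length of the coding transcripts, Inppl1 was first by its mean in control mice and number 3 in mAktDKO mice. Its control range (41.4 to 51.0) overlapped those of Pik3r1 (36.9 to 49.2) and Pdpk1 (39.5 to 44.0), so their order in control mice was not resolved. In mAktDKO mice the range of Inppl1 (33.5 to 35.7) lay below those of Pik3r1 and Pdpk1, which overlapped each other. Pik3cb had the lowest level under every definition in both groups.

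**Figure D3:**
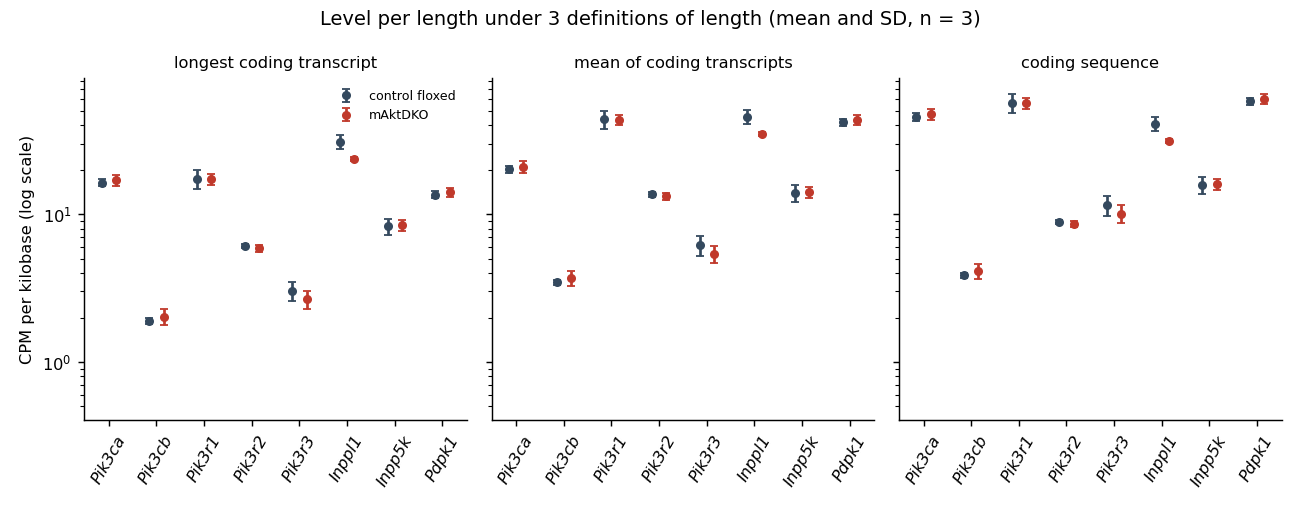
CPM per kilobase (y axis, log scale) of the 8 genes in control floxed mice (dark blue) and mAktDKO mice (red), as mean and SD (n = 3), with 3 definitions of length in the 3 panels. Pik3cb is lowest in each panel. Inppl1 is at the top in both groups with the longest transcript, and Pdpk1 in both groups with coding length. With the mean length Inppl1 is at the top in control mice and Pik3r1 in mAktDKO mice. These places are those of the means, and with the mean and coding lengths the ranges of the highest genes overlap.

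The genes whose log2 CPM followed Inppl1 most closely over the 6 mice were Thra, a thyroid hormone receptor (Pearson r = 0.994), Atpaf2, an assembly factor of the mitochondrial ATP synthase (r = 0.993), and Narfl (r = 0.992). The r values are descriptions over 6 mice that fall into the genotype groups, and 6.53% of 12780 genes had an r above 0.9 with Inppl1. The log2 fold changes of these genes were -0.22 for Thra, -0.44 for Atpaf2 and -0.45 for Narfl, with adjusted p values of 0.130, 0.0752 and 0.0745 in edgeR.

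The surrounding pathway was described with 51 further genes, of which 50 were tested. Pik3c2g, with 1 count in all, did not pass the filter. Log2 fold changes were above 0 for 29 and below 0 for 21, with a median of 0.05. The groups did not overlap for 8 of the 50 genes, 4 higher and 4 lower, against the 31.1% of all genes tested. No gene was called at an adjusted p under 0.01 in edgeR (0.0233% of all genes), and 1 of 50 fell at an adjusted p under 0.05 (1.18% of all genes), a count near the share of all genes. That gene was Inpp5j, a 5-phosphatase of the same family as Inppl1 and Inpp5k. Inpp5j had 1.84, 1.44 and 1.78 CPM in mAktDKO mice and 6.08, 4.89 and 3.48 CPM in control mice, and all 3 mAktDKO values were under the lowest control value. The log2 fold change of Inpp5j was -1.52, with a standard error of 0.25 (adjusted p = 0.0396 in edgeR and 0.000678 in DESeq2), a ratio of 0.350 (95% interval 0.235 to 0.520), from 279 counts in all. Pla2g3, which overlaps it on the opposite strand, had 5 counts in all. The call at 0.05 was lost without mAktDKO mouse 1, 2 or 3 or control mouse 3, where the adjusted p was between 0.0879 and 0.217 in edgeR. Over all 12892 genes these fits called 4, 3, 5 and 28 genes at 0.05, against 152 with all mice. The log2 fold change of Inpp5j stayed between -1.70 and -1.31 over the fits that left out 1 mouse.

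The other 5-phosphatases numbered 10 with Inpp5j, of which 4 were below 0. Inpp5a, which acts on soluble inositol phosphates, was at -0.25 (adjusted p = 0.180), and Inpp5d, the SHIP1 gene of blood cells and closest relative of Inppl1, was at 0.00 (95% interval -0.42 to 0.42). The 8 myotubularins, which remove the 3-phosphate of other phosphoinositides, had a median of 0.04, with Mtmr3 at -0.24 and Mtmr1 at 0.14, and 0 were called. The 5 4-phosphatases had a median of 0.10, with Inpp4b at 0.32 (adjusted p = 0.169) and Sacm1l at 0.25 (adjusted p = 0.193), and 0 were called.

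The other class I PI3-kinase genes, Pik3cd, Pik3cg, Pik3r5 and Pik3r6, are expressed mainly in leukocytes. All 4 had values above 0, with a median of 0.32, and 0 were called. Pik3cd was at 0.18 (adjusted p = 0.490), Pik3cg at 0.35 (adjusted p = 0.328) and Pik3r5 at 0.57 (adjusted p = 0.336). Of the class II and III kinases, 4 were tested with a median of -0.05. Pik3c2a was at 0.30 (adjusted p = 0.189), and Pik3c3, which makes the lipid of early autophagosomes, was at -0.15 (adjusted p = 0.416). Among 8 modulators and PIP3-binding proteins the median was -0.02. Phlda3, which competes with Akt for PIP3, had 70.4, 58.5 and 69.6 CPM in mAktDKO mice and 120, 78.8 and 89.3 CPM in control mice, a log2 fold change of -0.54 (adjusted p = 0.0891 in edgeR and 0.0130 in DESeq2), and Plekha1 was at -0.12 (adjusted p = 0.480). The 11 PI 4- and 5-kinases had a median of 0.03, with Pikfyve at 0.33 (adjusted p = 0.148) and Pi4k2a at -0.20 (adjusted p = 0.288). Without control mouse 2 several of these values lay nearer to 0 by more than 1.5 times, with Phlda3 at -0.34, Inpp5a at -0.13, Mtmr3 at -0.13, Plekha1 at -0.07, Pik3c3 at -0.09, Pik3cg at 0.19, Pik3c2a at 0.17 and Sacm1l at 0.15. Inpp4b was at 0.17 without mAktDKO mouse 2. Pik3cd was at 0.01 without mAktDKO mouse 3 and at 0.29 without control mouse 2. Mtmr1 ranged from 0.08 without mAktDKO mouse 3 to 0.21 without mAktDKO mouse 1, where Plekha1 was at -0.05. Without control mouse 4 Pikfyve was at 0.48 with an adjusted p of 0.0474 in edgeR, which lies under 0.05. In that fit 353 of all 12892 genes were called at 0.05, against 152 with all mice.

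**Figure D4:**
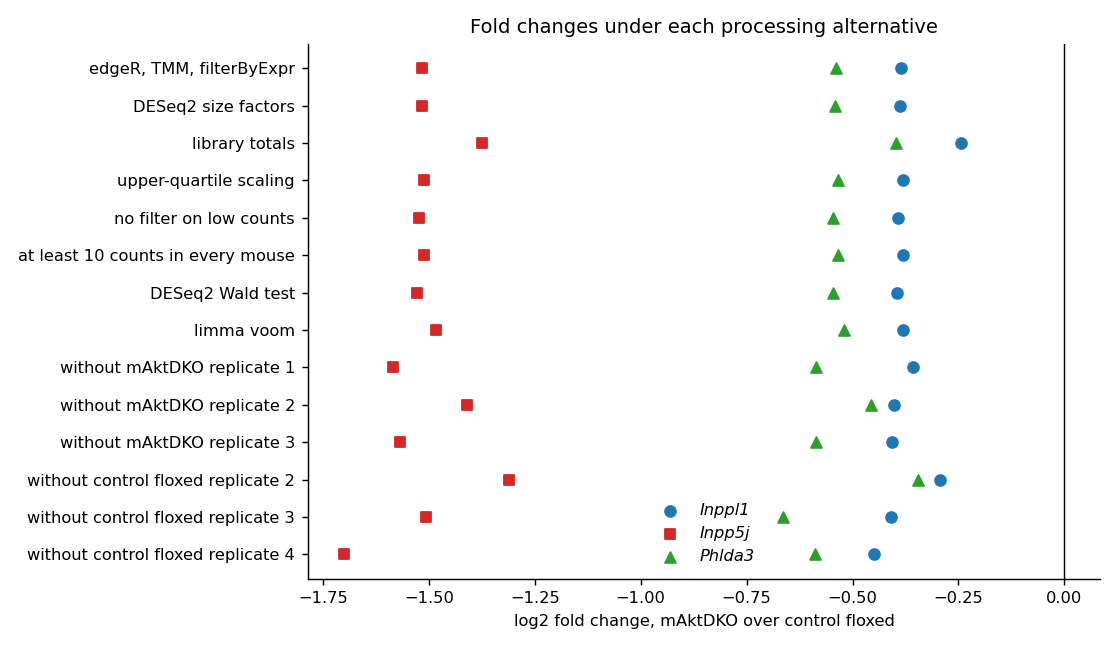
Log2 fold change (x axis, mAktDKO over control floxed) of Inppl1 (circles), Inpp5j (squares) and Phlda3 (triangles) under each processing alternative and without each mouse (y axis). All points lie below 0, and those of Inppl1 run from -0.45 to -0.25.

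Marker genes of fibre types and of other cell types are given beside the lower Inppl1 level. All 9 fast fibre markers had values below 0, the median being -0.22 on the log2 scale, and their summed level was 106400 to 117200 CPM in mAktDKO mice and 121200 to 131900 CPM in control mice. The ratio of the sums, 0.883, is dominated by abundant genes such as Myh4 (0.988). The ratios of Tnni2 (0.662), Myh1 (0.704), Tnnc2 (0.718) and Pvalb (0.753) lay below the 0.766 of Inppl1. Those of Ckm (0.859), Mylpf (0.871), Acta1 (0.883), Tnnt3 (0.901) and Myh4 lay above it. Of the 6 slow fibre markers 5 were above 0, with a median of 0.46 and overlapping sums of 426 to 915 CPM in mAktDKO mice and 363 to 581 CPM in control mice, Myh7 being at 0.90 (adjusted p = 0.152 in edgeR). All 6 tested leukocyte markers of 9 were above 0, with a median of 0.50 and sums of 81.9 to 98.0 CPM in mAktDKO mice and 58.1 to 81.7 CPM in control mice. The 6 markers of fibroblasts and fibro-adipogenic progenitors were all above 0 (median 0.53, sums of 18330 to 21770 against 7310 to 18430 CPM), as were the 6 adipocyte markers (median 1.02, sums of 55.2 to 165 against 41.9 to 92.2 CPM) and the 5 Schwann cell markers (median 0.28), and the sums of these 3 lists overlapped between the groups. The medians of the endothelial, mural and satellite cell lists were 0.05, -0.07 and 0.26. Control mouse 2, the highest for Inppl1, had the lowest sums of the leukocyte, fibroblast, slow fibre, Schwann, mural and satellite cell lists. Its sums of the fast fibre, endothelial and adipocyte lists were not the lowest. The counts of this mouse lay furthest from those of the mAktDKO mice, with a chi-square per degree of freedom of 40.3 to 55.2. For control mice 3 and 4 that value was 13.8 to 22.7. Within the control group, mouse 2 had 22.0 against mouse 3 and 21.3 against mouse 4, and mice 3 and 4 had 8.72 against each other. At an adjusted p under 0.05, edgeR called 0 markers, and DESeq2 called 4 of the 9 fast fibre, 1 of the 6 slow fibre and 1 of the 6 fibroblast markers, against 7.47% of the 10440 genes with an adjusted p in DESeq2. No tested marker was at 0 in all mice, and the part of these markers in the Inppl1, Pik3cg and Pik3r5 values was not tested.

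**Figure D5:**
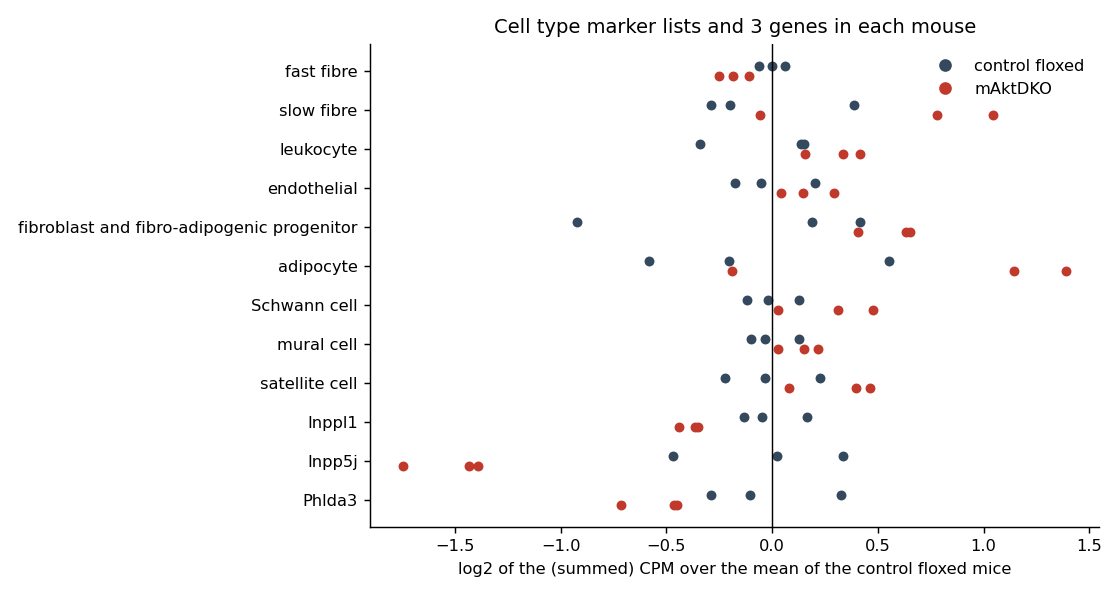
Log2 of the summed CPM of each marker list, and of the CPM of Inppl1, Inpp5j and Phlda3, over the mean of the control floxed mice (x axis), for each control floxed (dark blue) and mAktDKO mouse (red). Fast fibre markers and the 3 genes lie lower in the mAktDKO mice, while leukocyte and fibroblast lists lie higher in most of them.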

How the data were processed

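EDL of 3 mAktDKO and 3 control floxed mice was sequenced by the authors from rRNA-depleted, strand-specific, paired-end libraries. The submitters' processing notes name STAR 2.6.1b and RSEM 1.3.1, with mm10 as the genome. The deposited values are estimated counts (expected counts) per gene, not scaled between mice, of which 3.36 to 4.09% per mouse were not whole numbers. The numbers of the control columns, 2 to 4, differ from those in the labels, so these columns stand for the group. Total counts were 13738795 to 15445523 per mouse. No pair of mice had identical values.

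With edgeR 4.0.16 in R 4.3.3, the counts were rounded, genes were kept by filterByExpr with a minimum count of 10, and libraries were scaled by TMM. Genotypes were compared by the quasi-likelihood test with Benjamini-Hochberg adjustment over 12892 genes. A gene was called at an adjusted p under 0.01, and 0.05 served as a second rule. Intervals are 95% intervals of the log2 fold change. The log2 CPM values used for correlations have a prior count of 2. Alternatives were other scalings and filters, DESeq2 1.42.0, limma 3.58.1 (voom), other length definitions, and leaving out each mouse. The steps were tested on simulated data.

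Gene positions and lengths come from GENCODE M21, and promoter windows from RefSeq (GRCm38.p6), where all 8 members matched by symbol. The members and gene lists were chosen with earlier results of these data known. Named beside the members were, of each list of other pathway genes, those called at 0.05 and the 2 with the smallest p, together with Pik3cd, Pik3cg and Inpp5d, Akt1 and Akt2, and the 3 genes most like the member with the smallest p by Pearson r. The result of 1 further gene is not reported here. Each column was taken as 1 mouse; the labels do not say so outright, and otherwise p-values measure only the spread between these samples.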

Additional observations from a re-analysis of the deposited data

How the results depend on the processing

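The count of members called at an adjusted p under 0.01 was 0 under every alternative, and the direction of Inppl1 was the same in all of them. Over all genes the count of 3 calls was 32 with no filter on low counts, 329 with the DESeq2 Wald test, 152 at an adjusted p under 0.05, and 0 to 8 without single mice. The count of other pathway genes called, 0, became 1 with DESeq2 or at 0.05, which was Inpp5j in each case (log2 fold change -1.53 and -1.52). With library totals 4 members had groups that did not overlap, against 33.4% of all genes under that scaling, and without single mice 1 to 3 did, against 36.0 to 44.6% of all genes.

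Signs turned for genes near 0. With library totals Pik3r1 was at 0.13, Pik3r2 at 0.0931 and Plekha1 at 0.0196, when the median of all genes moved from 0.02 to 0.16. The members Pik3ca, Pik3cb, Pdpk1 and Inpp5k moved with it to 0.20, 0.24, 0.19 and 0.16, and Pik3r3 to -0.05. The list medians moved likewise, those of the class II and III kinases and of the modulators turning sign to 0.09 and 0.12, and the others lying between 0.17 and 0.46. Inpp5d was at -0.00086 with DESeq2 size factors, -0.0057 with no filter, -0.0069 with DESeq2 and -0.0129 with limma voom. Without single mice Pik3r1 ranged from -0.12 to 0.0837, Inpp5k from -0.0603 to 0.13 and Inpp5d from -0.18 to 0.12. The list medians then ranged from 0.0090 to 0.07 for the myotubularins, 0.09 to 0.17 for the 4-phosphatases, 0.0021 to 0.05 for the 5-phosphatases, 0.27 to 0.48 for the class I genes, 0.0058 to 0.08 for the PI 4- and 5-kinases, -0.08 to 0.0062 for class II and III and -0.09 to 0.02 for the modulators. The cause of these turns was not tested.

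With coding length, Inppl1 moved from first to number 4 in the order of the mean levels. With counts not divided by length the control shares were 92.2% for Pik3ca, 77.6% for Pik3r1, 12.2% for Pik3r2 and 87.4% for Inppl1, which follows from the lengths.

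No paired analysis was possible because the numbers of the control mice in the table do not match those of the labels. The labels also do not state that any mAktDKO mouse was paired with a control mouse, so matching numbers alone would not have shown pairs. With 3 mice per group, whose origin beyond the genotype the labels do not give, the 95% intervals of the 7 members other than Inppl1 reach from -0.52 to 0.37 on the log2 scale.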
